A study of Mus musculus with 9 samples.

Results

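Truncated PREX2 was compared with full-length PREX2 in a wild-type line of mouse embryonic fibroblasts, connective-tissue cells grown from embryos, on 4 of the 9 Affymetrix arrays of the study. The cells came from wild-type E13.5 embryos, had immortalised spontaneously and were transduced with lentivirus. One array held cells expressing PREX2 wt (full-length), and 3 held cells expressing a PREX2 cut short by a premature stop, named by the residue that the stop replaces: K278*, E824* or Q1430*. The same line expressing GFP or LacZ, unrelated proteins, gave 2 further arrays that are set beside the results, and the other 3 arrays of the study came from a Suv420h1 knockout line and entered only an alternative fit of all 9 arrays. Each construct was measured on 1 array. The 3 truncations are different constructs and not repeats of 1 condition. A p-value here, and an SD with n = 3, therefore rests on the spread between constructs. The labels do not state separate cultures, so part of that spread may be technical, and each construct cannot be told apart from its own transduced culture. The promoter of the vector and the amount of each PREX2 protein are not given in the labels.

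PREX2 is an exchange factor: its catalytic DH and PH domains load the GTPase Rac with GTP, and loaded Rac drives actin assembly at the cell edge. The PREX2 gene is recurrently mutated in melanoma, truncating mutations included. The catalytic domains lie in the N-terminal part of the protein, and the stop codons leave different lengths of it.

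Signals are MAS5 intensities, on which every array had a trimmed mean of 500. Differences are on the scale log2(signal + 25), which understates the change of dim probe sets. A probe set, the array's unit of measurement for a transcript, entered the test with a mean signal of 100 or more on the 4 arrays. That left 18621 probe sets and 10045 genes, each gene read from its brightest probe set. The cells carried the markers of fibroblasts: 15 of 18 fibroblast markers had a signal of at least 100 on all 4 arrays, and their summed signal was 260160 with full-length PREX2, 209109 with K278*, 275323 with E824* and 260678 with Q1430*. Of 7 germ and pluripotent markers, all lay under 100 on all 4 arrays, as did 7 of 9 endothelial, 7 of 9 epithelial, 5 of 8 macrophage and blood, 7 of 10 adipocyte and 7 of 11 neural and melanocyte markers. The summed adipocyte markers were 8260, 5270, 11418 and 9929 and the summed neural and melanocyte markers 2044, 1860, 2645 and 2608 on the arrays in that order. These sums were lowest with K278* and highest with E824*, but each was mostly 1 gene. Lpl gave 7504, 4482, 10729 and 9218, and Map2 gave 1348, 966, 1837 and 1703. Fabp4 (388, 391, 277 and 315), Dgat2 (235, 229, 217 and 205) and Tubb3 (243, 375, 269 and 318) did not have that order, whereas Mitf was also lowest with K278*. The part of these markers in the results was not tested. The 3′/5′ signal ratio of actin, a measure of RNA integrity, was 1.31, 1.18, 1.34 and 1.31 on the arrays in the same order.

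The K278* array stood apart from the other truncations. It differed from E824* by more than 2-fold at 626 probe sets and from Q1430* at 347, whereas E824* and Q1430* differed at 44. Full-length PREX2 differed from K278* at 117 probe sets, from E824* at 132, from Q1430* at 58 and from LacZ at 55. The GFP array was further from all of them, with 901 such probe sets against full-length and 1277 against LacZ. The limma calls and the counts over gene lists are therefore also given without that array; a gene with all 3 truncations on 1 side stays on that side without it.

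No gene passed the test of the 3 truncations against full-length PREX2. In limma, with Benjamini-Hochberg adjustment over all 18621 probe sets, 0 probe sets had an adjusted p below 0.05 (0.0%), and 203 (1.09%) had an unadjusted p below 0.05. The smallest adjusted p was 1.0 after rounding, so no gene is said to have changed in this comparison. An exact permutation test of 1 array against 3 cannot go below 0.25. In simulated data of this design, 44% of 2-fold changes and 98% of 4-fold changes were called, with 9 false calls. The simulated arrays varied independently, with a spread set by signal level, whereas K278* stood apart in the real data. These shares therefore cannot show how often real changes of that size would be called.

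All 3 truncations lay on the same side of full-length PREX2 at 6830 probe sets (36.7%), above it at 3681 (19.8%) and below it at 3149 (16.9%). If the 4 arrays were interchangeable, full-length would be the lowest at about 0.25 of probe sets and the highest at as many. Both shares were under that, so these counts do not show that the truncations separate from full-length. After quantile normalization the balance was reversed, with 3223 probe sets above and 3477 below. By gene, without that normalization, 1813 (18.0%) lay above and 1719 (17.1%) below. Most of these were separated by small amounts. At a separation of at least 1.5-fold between full-length and the nearest truncation, 30 genes (0.299%) lay above and 2 (0.0199%) below, or 47 probe sets (0.252%) above and 9 (0.0483%) below. At 2-fold there were 3 genes (0.0299%), Znfx1, 9530082P21Rik and Flnc, or 5 probe sets (0.0269%), above and 0 below. The filter is a mean over 4 arrays of which 3 are truncations, so a dim gene passes more readily when the truncations are high: 12 of the 30 genes above had a full-length signal under 100, and the split between above and below is partly set by the filter. Dim probe sets held most of the wide separations: 31 of the 47 had a mean signal under 200, against 3545 of all 18621. Among genes with a mean signal of at least 200 in the brighter group (full-length or truncated), Zfp458 was just inside the 1.5-fold line above. It lay at a log2 separation of 0.588, and Pkdcc, at 0.561, was just outside. Below, among genes with the same limit, Lims2 at -0.628 was inside and Dyrk1b at -0.577 outside.

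For most genes full-length PREX2 was not at an end. It lay between the truncations at 11791 probe sets (63.3%), and at 7243 of those tested (38.9%) K278* was the array alone on its side. E824* was alone at 14.9% and Q1430* at 9.51%. Among genes, 2255 had K278* below and the other truncations above full-length, and 1956 had K278* above and the others below.

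The gene furthest above full-length with all 3 truncations, among those whose brighter group had a mean signal of at least 200, was Flnc, which encodes filamin C, a cross-linker of actin filaments best known from muscle. Its signal was 518 with full-length PREX2, 2000 with K278*, 1332 with E824* and 1613 with Q1430*. The truncations did not overlap full-length, at a mean of 1648 ± 336 (SD, n = 3) and a log2 difference of 1.60 (SE 0.247, limma adjusted p = 1.0). LacZ, at 1318, lay with the truncations, and GFP, at 606, lay near full-length. A second tested probe set of Flnc did not show the separation, with 260 for full-length and 288, 277 and 230 for the truncations, so the 2 probe sets disagree.

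Separations were narrower for the other named genes above full-length. Apol7a, a member of the apolipoprotein L family, gave 89.8 with full-length and 185, 222 and 222 with K278*, E824* and Q1430*. Tnfrsf11b encodes osteoprotegerin, a decoy receptor that blocks osteoclast formation, and gave 129 with full-length against 266, 232 and 210. Cklf, a chemokine-like factor, gave 491 against 759, 754 and 850, but none of its 4 other tested probe sets had all truncations on that side. The chemokine Cxcl16 was dimmer, at 74.0 against 196, 182 and 150.

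Some of the named genes above full-length act in chromatin, RNA or transcription. Mideas, a subunit of a histone deacetylase complex, gave 415 with full-length and 692, 682 and 677 with the truncations. This was among the tightest of the named genes, with a truncated mean of 683 ± 7.59 (SD, n = 3) and a log2 difference of 0.69 (SE 0.162, limma adjusted p = 1.0). Both controls also lay above full-length there, GFP at 771 and LacZ at 753. Thoc5, part of the complex that couples transcription to mRNA export, gave 387 against 637, 651 and 615, with GFP at 557 and LacZ at 548. Polr3gl, a subunit of RNA polymerase III, gave 233 against 386, 448 and 364. Hoxd3os1, an antisense transcript of the HOXD cluster, gave 153 against 266, 300 and 323, and the zinc-finger gene Zfp141 gave 117 against 219, 226 and 205. GFP lay below full-length for Hoxd3os1, at 123, and for Polr3gl, at 208, unlike any truncation.

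Others act in the cytoskeleton or in membrane traffic. Gas7, a membrane-binding protein tied to actin, gave 117 with full-length and 205, 257 and 218 with the truncations, and its second tested probe set had them on the same side, at 105 against 128, 129 and 176. Tubd1, delta-tubulin, gave 112 against 206, 195 and 227. Hip1r, which links clathrin-coated pits to actin, gave 178 against 364, 281 and 286. Oxnad1 (409 against 632, 747 and 903) and Zfp458 (113 against 182, 202 and 283) completed the list of 15 together with Gpank1. The second tested probe set of Oxnad1, at 399 against 424, 331 and 344, overlapped. For Gpank1 the probe sets went opposite ways: 203 against 342, 407 and 347 on the brighter over these arrays, and 399 against 142, 237 and 220 on the other.

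At the lower end the separations were smaller. Lims2 encodes an adaptor of focal adhesions that binds integrin-linked kinase, and gave 295 with full-length and 182, 161 and 125 with K278*, E824* and Q1430*. The truncated mean was 156 ± 28.8 (SD, n = 3), a log2 difference of -0.83 (SE 0.261, limma adjusted p = 1.0). LacZ, at 287, was nearer to full-length than to any truncation. The integrin subunits Itgb3 (214 against 141, 128 and 153) and Itga3 (394 with full-length, and lower by log2 differences of -0.41, -0.92 and -0.47) were also among the 15 lowest. Both controls lay above every truncation for Lims2, with GFP at 207, and for Itga3, with GFP at 371 and LacZ at 361.

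The other genes of the lower end had varied functions. Dyrk1b, a protein kinase that holds cells in quiescence, gave 222 with full-length and 125, 138 and 141 with the truncations. Fkbp8, a mitochondrial-membrane immunophilin, gave 483 against 228, 315 and 317, and the histone gene H2bc22 gave 334 against 119, 196 and 217. In these last cases K278* was the lowest array. Ap2a1, a subunit of the AP2 endocytic adaptor, gave 252 against 163, 150 and 147. Wdr59, a subunit of the GATOR2 complex that relays amino-acid supply to mTORC1, gave 264 against 162, 171 and 168. Gid4, the substrate receptor of a ubiquitin ligase, gave 685 against 460, 394 and 441, but neither of its other tested probe sets had all truncations below. Galc, the lysosomal galactosylceramidase, gave 307 against 203, 172 and 182, and the repressor Klf12 gave 330 against 191, 185 and 226, with its second probe set on the same side at 142 against 99.3, 95.6 and 111. Usb1, Optc, Rogdi and Ndufb1 completed the 15, with log2 differences between -0.60 and -0.54.

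**Figure D1:**
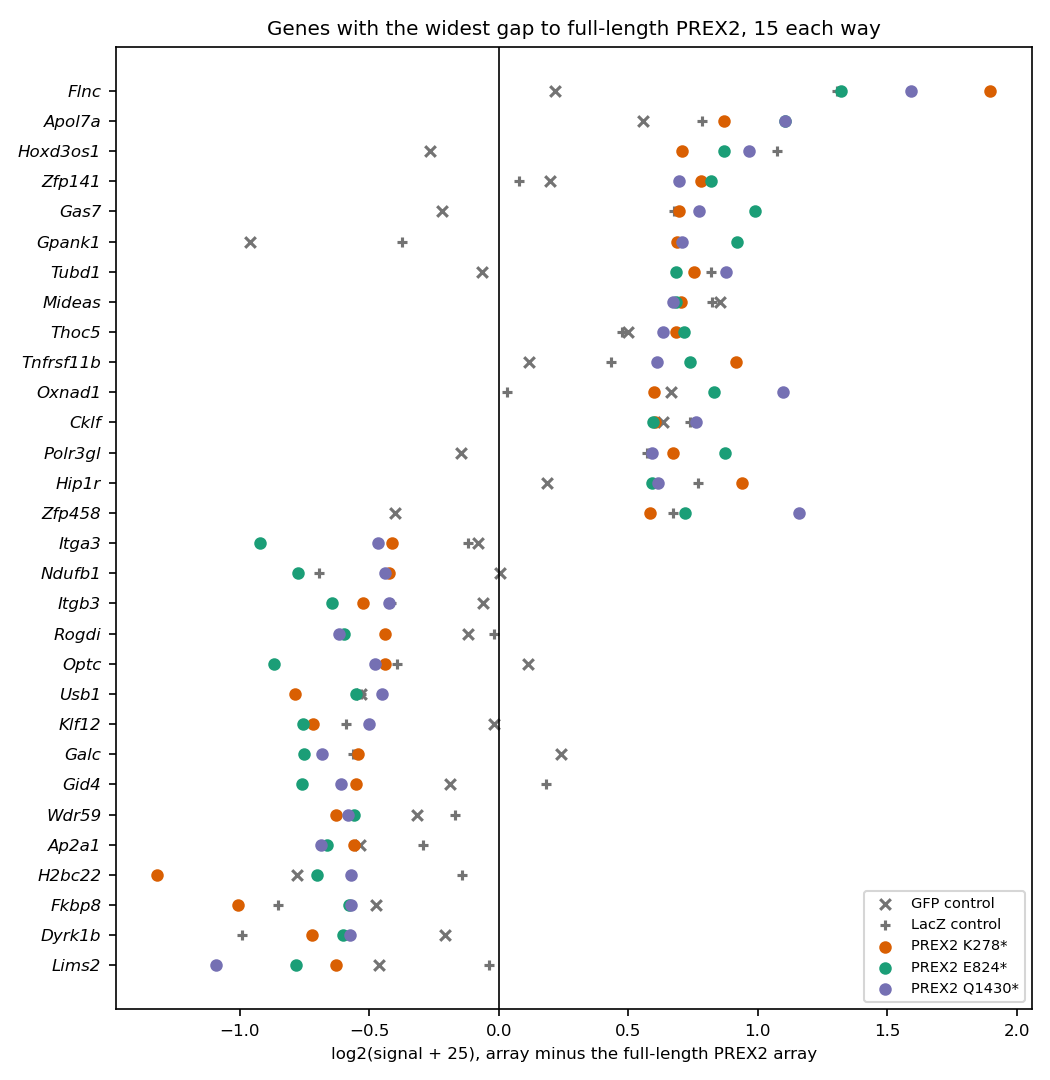
Difference of each array from the full-length PREX2 array, on the scale log2(signal + 25). The genes are the 15 furthest above and the 15 furthest below it, among those with a brighter-group mean of at least 200. Filled points are the truncations, 1 array each, and crosses the GFP and LacZ controls. Among these genes Flnc has the widest separation, 1.32 for its nearest truncation, and the next above, Apol7a, has 0.87.

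The controls often lay with the truncations. Of the 30 genes at least 1.5-fold above full-length, LacZ was above full-length in 29 and GFP in 23, and for both genes at least 1.5-fold below, Lims2 and the immunoglobulin gene Ighg3, both controls were below. The value of the full-length array enters both the choice of these genes and this count, so the count is a description. Second probe sets gave little repeat: of these 32 genes, 6 had other tested probe sets, 9 in all, of which 1 lay on the same side and 0 at 1.5-fold.

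PREX2 and Rac themselves were similar on all 4 arrays. The brighter Prex2 probe set, which reads mouse Prex2, gave 795 with full-length and 809, 722 and 703 with K278*, E824* and Q1430*, against 452 with GFP and 677 with LacZ. The log2 difference was -0.09 (SE 0.172), and the groups overlapped. The labels do not say from which species the PREX2 constructs come or whether this probe set reads them, so it is no check of their expression. Its other probe set gave at most 40.8 on the 4 arrays and was not tested. Rac1, the ubiquitous Rac, gave 6055 with full-length and 5624, 5560 and 5705 with the truncations, a log2 difference of -0.10 (SE 0.126, limma adjusted p = 1.0). Its second tested probe set gave 5474 against 5495, 5368 and 5078, and those overlapped. Cdkn1c, a CDK inhibitor, was dim, at 4.07 against 14.1, 21.7 and 12.6, and was not tested.

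Among the genes around Rac, few stood apart. Of 26 tested Rac exchange factors, 1 lay above full-length with all 3 truncations and 2 below (3.85% and 7.69%, against 18.0% and 17.1% of all genes); the widest was Dock11, an exchange factor that acts mainly on Cdc42, at 1536 against 1421, 919 and 1200. Of 18 Rac GTPase-activating proteins, which switch Rac off, 2 lay above and 3 below, with Stard13 the widest at 83.2 against 138, 142 and 137.

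Of 35 Rac effectors and lamellipodial actin genes, 3 lay above and 11 below (8.57% and 31.4%). Cfl1, cofilin, which severs actin filaments, gave 25021 with full-length and 22374, 22218 and 22413 with the truncations, and its second tested probe set was also below, at 917 against 791, 644 and 840. Limk1, the kinase that inactivates cofilin, gave 395 against 357, 326 and 326. Evl, a filament-elongating protein, gave 1471 against 1341, 1319 and 1288, but its other tested probe sets had all truncations above full-length. Rdx, radixin, which ties actin to the membrane, gave 4363 against 5819, 5023 and 5380. Of its other tested probe sets, 1 also had all truncations above. The other, at 4898 against 5054, 4773 and 4587, did not. The median log2 difference of the list was -0.06, against -0.002 for all genes, and 0 members passed the test.

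The PI3K pathway and its FOXO branch showed small differences as well. Of 34 tested members of the PI3K, AKT and mTOR list, 3 lay above and 8 below (8.82% and 23.5%), with a median log2 difference of 0.01. Igf1r, the IGF1 receptor, gave 1283 with full-length and 1056, 982 and 1067 with the truncations, and 1 of its other tested probe sets lay below and the other did not have all truncations on 1 side. Foxo3, a transcription factor that AKT keeps out of the nucleus, gave 1546 against 1261, 968 and 1359, but its second probe set gave 655 against 744, 634 and 677. Akt2 gave 443 against 538, 497 and 559. Of 23 FOXO targets, 1 lay above and 4 below. Of 5 tested CDK inhibitors, Cdkn2c alone was on 1 side, at 2165 against 2378, 2501 and 2409.

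Cell-cycle genes were where K278* and the other truncations lay on opposite sides of full-length PREX2. Of 36 G1/S and DNA replication genes, 32 were above full-length with K278* and below it with both E824* and Q1430*, as were 34 of 39 G2/M and mitosis genes, against 1956 of all 10045 genes. Median log2 differences from full-length for G1/S were 0.42 with K278*, -0.39 with E824* and -0.22 with Q1430*, and for G2/M they were 0.34, -0.44 and -0.21. Cyclin E2 (Ccne2) gave 453 with full-length, 828 with K278*, 324 with E824* and 404 with Q1430*. The replication helicase subunit Mcm5 gave 4769, 7061, 3236 and 4269, and the anaphase activator Cdc20 gave 11540, 14519, 8529 and 10136. K278* was the highest of the 4 arrays in each case, and GFP was higher still, at 1044, 8649 and 16364. These genes were picked as well-known members after their values were seen.

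Targets of ERK signalling had the same order. Of 26 ERK output and immediate-early genes, 16 were above full-length with K278* and below it with the others, against 19.5% of all genes. With all 3 truncations 5 lay above and 0 below (19.2% and 0.0%, against 18.0% and 17.1% of all genes). The share above was near that of all genes. Dusp6, a phosphatase that ERK induces against itself, gave 373 with full-length, 870 with K278*, 253 with E824* and 280 with Q1430*, and the AP-1 subunit Fosl1 gave 192, 539, 114 and 127. GFP lay above K278* for both, at 1266 and 1380, and LacZ lay between full-length and Q1430*, at 346 and 150. Among the 5 above with all 3 truncations, Ier3, a stress-induced early gene, gave 2306 against 2921, 2672 and 2507. Dusp6 and Fosl1 were likewise chosen after their values were seen.

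Matrix genes had the opposite order. Of 33 fibrillar collagen and matrix genes, 18 lay below full-length with K278* and above it with E824* and Q1430*, against 22.4% of all genes, and 0 had the reverse arrangement. With all 3 truncations 2 lay above and 8 below (6.06% and 24.2%, against 18.0% and 17.1% of all genes). Decorin (Dcn), a proteoglycan that organises collagen fibrils, gave 13857 with full-length, 7633 with K278*, 27342 with E824* and 21936 with Q1430*. Lumican (Lum) gave 154, 71.6, 525 and 323. GFP was lower than every PREX2 array for both, at 962 and 24.0, and LacZ, at 21523 and 373, lay near Q1430*. Fn1, fibronectin, lay below with all 3 truncations, at 21385 against 17664, 19049 and 19197. Its second tested probe set, at 507 against 790, 430 and 557, overlapped. Eln, elastin, lay above, at 190 against 223, 360 and 285. The summed fibroblast markers moved with the matrix list, with which they share members, and were lowest with K278* among the 4 arrays, and their part in it was not tested.

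**Figure D2:**
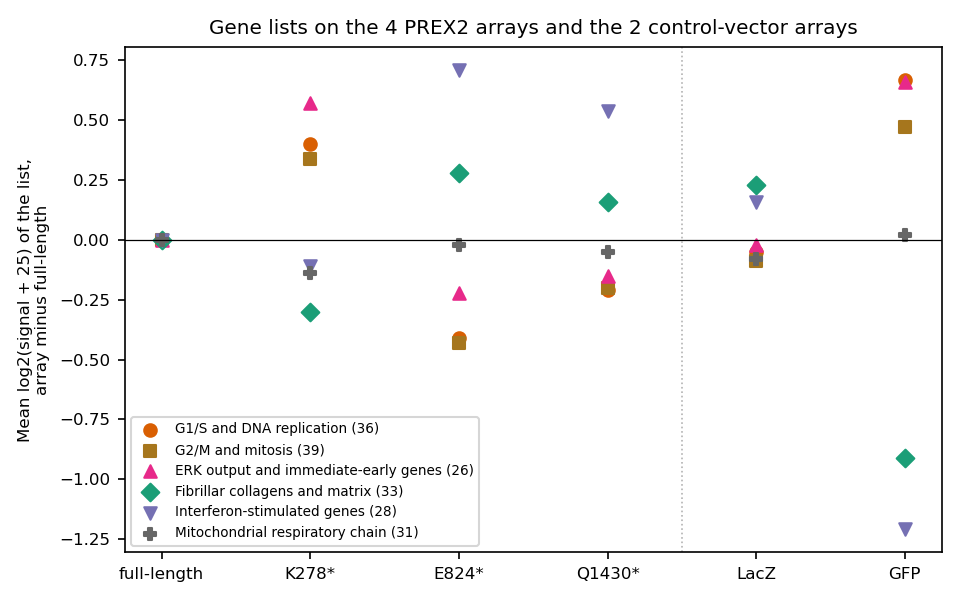
Mean log2(signal + 25) of 6 gene lists on each array, minus the full-length PREX2 array (at 0); the number of genes is in brackets, and the dotted line separates the 4 PREX2 arrays from both controls. The cell-cycle and ERK lists sit above 0 with K278* and below 0 with E824* and Q1430*, whereas the interferon and matrix lists sit above 0 with E824* and Q1430* and below it with K278*.

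Contractile, adhesion and secreted genes were mixed. Of 32 contractile and SRF or YAP response genes, 5 lay above and 7 below (15.6% and 21.9%, against 18.0% and 17.1% of all genes, the shares against which every count of this kind is read). Tagln, a smooth-muscle actin-binding protein, gave 14303 with full-length and 11832, 12255 and 12236 with the truncations, and the myosin light chain Myl9 gave 2958 against 2562, 2448 and 2656. Both controls lay above every truncation for Tagln, at 13869 and 13156, and for Myl9, at 3317 and 3206. Of 25 integrins, cadherins and adhesion genes, 3 lay above and 5 below, and of 25 matrix proteases and inhibitors, 6 above and 3 below. The protease inhibitor Timp2 gave 15023 against 13534, 13642 and 13551, but none of its other tested probe sets had all truncations below. Among 29 chemokines, cytokines and growth factors, 6 lay above and 1 below. The T-cell chemokine Ccl5 gave 152 against 290, 262 and 230, and the neutrophil chemokine Cxcl1 gave 2400 against 2839, 2755 and 3086. Of 28 Wnt, BMP and TGF-beta genes, 6 lay above and 3 below; Fst, the activin-binding follistatin, gave 3305 against 3922, 4094 and 3710, and its second probe set gave 2208 against 2886, 2788 and 2649. Of 17 HOX and positional identity genes, 4 lay above and 2 below, with Hoxb3 at 782 against 929, 956 and 928. The second tested probe set of Hoxb3, at 88.9 against 122, 108 and 85.9, overlapped.

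The largest shares below full-length among the pathway lists were in the respiratory-chain and ribosomal lists and in a stress-response list. Of 31 respiratory-chain genes 15 (48.4%) lay below with all 3 truncations and 0 above, of 18 cytosolic ribosomal protein genes 7 (38.9%) below and 0 above, and of 34 unfolded-protein and ATF4 response genes 13 (38.2%) below and 3 above, against 17.1% of all genes below. The sizes were small, with list medians of -0.07, -0.11 and -0.07 on the log2 scale. Cox6a1, a subunit of cytochrome oxidase, gave 28080 with full-length and 20876, 25338 and 25974 with the truncations, and its second probe set, at 13154 against 10993, 14575 and 12981, overlapped. Rps2 gave 30944 against 23688, 26800 and 28634. Atf4, the transcription factor that heads the amino-acid stress response, gave 13816 against 10923, 12688 and 12826. K278* was the lowest array in each of these, and genes of one list share the array's scaling. Of 20 cholesterol synthesis genes, 0 lay above and 5 below, with Dhcr7, which makes the last step, at 635 against 322, 570 and 514. The remaining lists were p53 targets (24 tested, 1 above and 3 below), NRF2 and glutathione genes (26, 1 and 3), hypoxia and glycolysis (24, 2 and 5) and imprinted genes (17, 1 and 1).

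Without K278*, a gene counted as on 1 side when both E824* and Q1430* were, which held for 40.5% of all genes above and 36.6% below. The respiratory-chain list then had 5 of 31 above and 19 below (16.1% and 61.3%), the ribosomal list 3 and 7 of 18 (16.7% and 38.9%), and the unfolded-protein and ATF4 list 6 and 17 of 34. For the ribosomal list the share below was then near that of all genes. Rac effectors and lamellipodial genes had 8 and 18 of 35 (22.9% and 51.4%), Rac exchange factors 4 and 13 of 26, and the PI3K list 11 and 13 of 34 (32.4% and 38.2%). Contractile genes had 9 and 20 of 32 (28.1% and 62.5%), adhesion genes 7 and 16 of 25, and matrix proteases and inhibitors 16 and 8 of 25 (64.0% and 32.0%).

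Interferon-stimulated genes, the antiviral program that type I and II interferons switch on through STAT and IRF factors, lay above full-length with E824* and Q1430* and mostly below it with K278*. Of 28 tested, 8 lay above full-length with all 3 truncations and 0 below (28.6% and 0.0%), and the median log2 difference was 0.35, the highest of the pathway lists. With E824* and Q1430* all 28 were above full-length, with medians of 0.62 and 0.56. With K278* the median was -0.13, and 20 of the 28 were below. The 8 were Usp18, Rtp4, Ddx58, Irf1, Gbp7, Ifit2, Ifit1 and Oas1a.

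**Figure D3:**
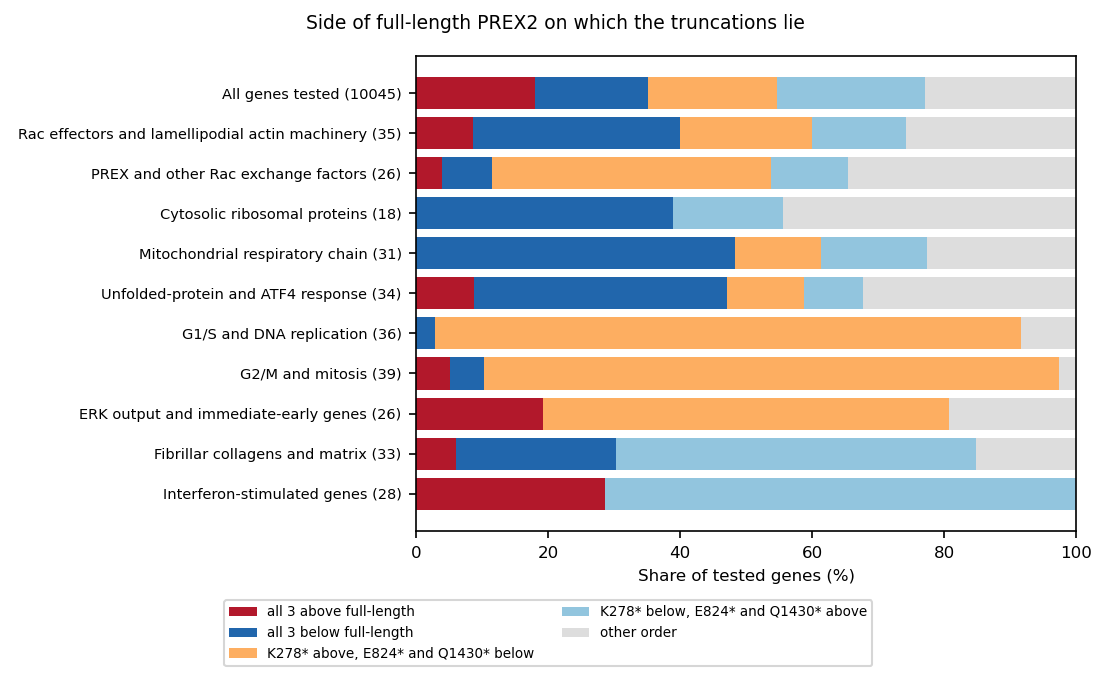
Share of tested genes (horizontal axis, percent, number of genes in brackets) by the side of full-length PREX2 on which the truncations lie, for all genes and for the gene lists named on the vertical axis. All 28 interferon-stimulated genes have E824* and Q1430* above full-length, 8 of them with K278* above as well, whereas 32 of 36 G1/S and 34 of 39 G2/M genes have K278* above and the others below.

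Transcription factors activated by interferon signalling recognise a sequence called the interferon-stimulated response element, whose core was searched here as 2 copies of GAAA with any 2 bases between them, on both strands. The RefSeq promoter windows of GRCm38.p6 (250 bases before to 50 after the start) of 3 of these genes are shown: they hold a match, marked in capitals, and passed limma without K278* (adjusted p = 0.0167 for Ddx58, 0.0289 for Gbp7 and 0.0454 for Ifit1). Ddx58 lies on the minus strand (chr4:40239776-40240075), with its match beginning at position 3 after the start. Gbp7 (chr3:142530086-142530385) and Ifit1 (chr19:34640639-34640938) lie on the plus strand, with 1 match beginning at -53 and 2 matches beginning at -104 or later. The windows span the first exon's start.
Ddx58: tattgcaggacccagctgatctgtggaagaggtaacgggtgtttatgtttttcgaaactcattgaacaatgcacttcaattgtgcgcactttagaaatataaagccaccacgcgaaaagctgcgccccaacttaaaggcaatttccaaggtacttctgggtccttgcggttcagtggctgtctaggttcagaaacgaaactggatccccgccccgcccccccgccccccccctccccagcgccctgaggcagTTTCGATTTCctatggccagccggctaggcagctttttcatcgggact
Gbp7: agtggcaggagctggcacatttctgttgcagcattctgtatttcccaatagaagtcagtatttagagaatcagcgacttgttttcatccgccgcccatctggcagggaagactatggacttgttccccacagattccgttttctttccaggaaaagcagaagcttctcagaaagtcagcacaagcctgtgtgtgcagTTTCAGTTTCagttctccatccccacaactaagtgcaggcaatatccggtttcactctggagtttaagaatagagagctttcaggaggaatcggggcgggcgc
Ifit1: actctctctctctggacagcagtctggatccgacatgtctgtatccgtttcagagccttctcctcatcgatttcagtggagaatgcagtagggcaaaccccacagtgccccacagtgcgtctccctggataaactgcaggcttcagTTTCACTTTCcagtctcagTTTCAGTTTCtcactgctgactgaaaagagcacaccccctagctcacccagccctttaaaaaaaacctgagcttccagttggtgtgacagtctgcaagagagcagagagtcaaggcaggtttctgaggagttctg
Of the 8 genes, 6 had a promoter in the table and 4 of these held the core, as did 9 of 16 other tested members with a promoter, against 1079 of all 27025 genes in the table (3.99%), or 1131 of 32851 windows (3.44%). A match is a description of the letters, and list members are known interferon targets.

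The separation from full-length was unequal between the constructs. Usp18, which damps interferon receptor signalling, gave 55.4 with full-length, 89.2 with K278*, 251 with E824* and 169 with Q1430*. Rtp4, an interferon-induced chaperone, gave 193, 281, 597 and 459. Ifit1, which binds viral RNA, gave 230, 248, 669 and 408. E824* was the highest and K278* the nearest to full-length in each, and LacZ, at 106, 302 and 346, lay between full-length and Q1430*. Ddx58 encodes RIG-I, a sensor of viral RNA, and gave 442, 539, 871 and 753 on its brighter probe set, whereas its second probe set gave 165, 143, 199 and 223. The guanylate-binding protein Gbp7 gave 277, 314, 519 and 502, and Irf1, a transcription factor of the response, 1039, 1241, 1316 and 1319. Oas1a, an enzyme that makes the RNase L activator, was nearly equal on the PREX2 arrays, at 183, 221, 206 and 185, and lay at 20.4 with GFP and 33.1 with LacZ.

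Without K278*, limma called 223 probe sets between the E824* and Q1430* arrays and full-length PREX2, 167 higher (0.897%) and 56 lower (0.301%), with 2700 at an unadjusted p below 0.05. That fit rests on 1 residual degree of freedom, the difference between E824* and Q1430*. K278* was left out after it was seen to stand apart. Of the wild-type-line arrays, the remaining pair differed by more than 2-fold at the fewest probe sets, 44. The choice of arrays therefore made the spread in this fit small, and its calls are a description. By gene, 108 were higher (1.08%) and 33 lower (0.329%). K278* lay on the same side of full-length for 40 of the 108 and 7 of the 33, and on the other side for 68 and 26. In simulated data of this smaller design 92% of 2-fold changes were called, with 13 false calls. The full-length array alone stands for its group in every call, so its own spread is not in the test. All simulated arrays of the smaller design had the spread seen between E824* and Q1430*. That simulation therefore cannot show how many false calls the choice of this pair adds.

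**Figure D4:**
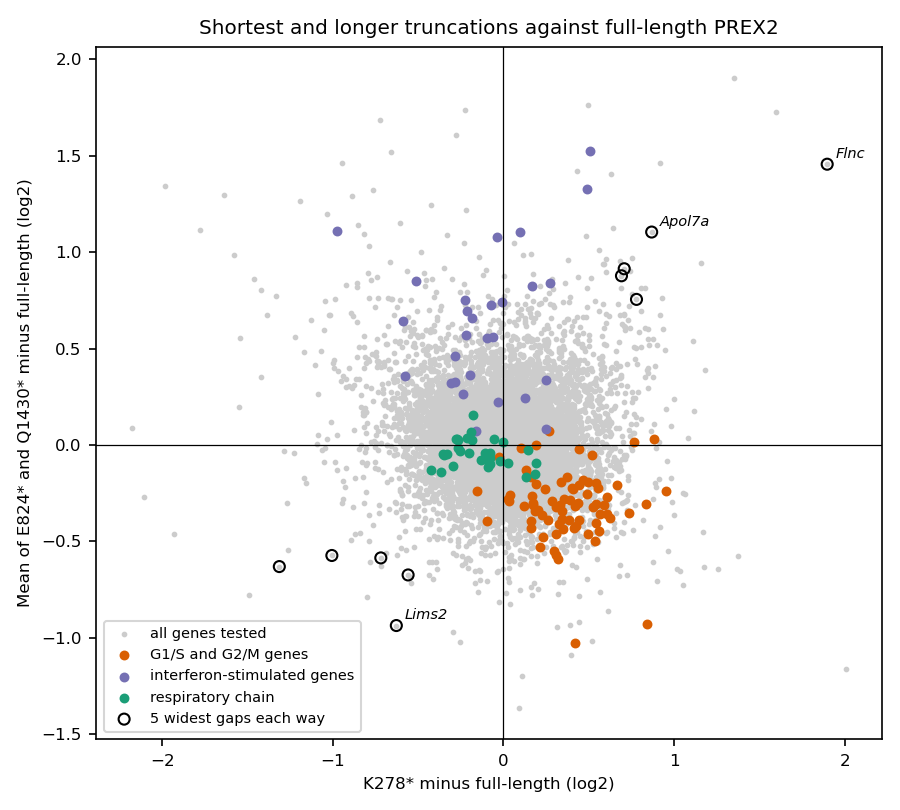
Mean of E824* and Q1430* minus full-length PREX2 (vertical axis) against K278* minus full-length (horizontal axis), in log2, 1 point per gene for 10045 genes; both axes share the full-length array. Circles mark the 5 widest separations each way among genes with a brighter-group mean of at least 200. Flnc lies at 1.90 and 1.46. The interferon-stimulated genes lie above 0 on the vertical axis, and most cell-cycle genes lie at the lower right.

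Interferon-stimulated genes made up 9 of the 108 and 0 of the 33. Rtp4 rose by 1.33 on the log2 scale (SE 0.186, limma adjusted p = 0.00717), Usp18 by 1.53 (SE 0.273, adjusted p = 0.0234) and Ifit1 by 1.11 (SE 0.233, adjusted p = 0.0454). Iigp1, an interferon-induced GTPase, rose by 1.11 (SE 0.13, adjusted p = 0.00301), at 719 with full-length, 1741 with E824* and 1435 with Q1430*, while K278* lay at 353. Gbp3 (adjusted p = 0.013) and Xaf1 (adjusted p = 0.0165) rose as well, with K278* below full-length for both.

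The matrix list gave 5 higher genes, Dcn, Fmod, Lum, Mfap5 and Fbn2, and 1 lower, Vcan. Dcn rose by 0.82 (SE 0.119, limma adjusted p = 0.00808), and fibromodulin (Fmod), a partner of decorin on collagen, gave 198 with full-length, 519 with E824* and 389 with Q1430*, a rise of 1.09 (SE 0.195, adjusted p = 0.0236). Versican (Vcan), a large proteoglycan of loose matrix, fell by 0.64 (SE 0.111, adjusted p = 0.0188), at 5637, 3288 and 3946, while K278*, at 5625, was close to full-length. Its other probe sets gave 1 on the same side of full-length, and 0 of them passed. Flnc had the smallest adjusted p of all, with a log2 difference of 1.46 (SE 0.133, adjusted p = 0.00139), and its second probe set gave an adjusted p of 0.958.

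Other genes called without K278* are named after their values were seen. Cxcl13, a B-cell chemokine, gave 348 with full-length, 1350 with E824* and 920 with Q1430* (log2 difference 1.61, SE 0.185, limma adjusted p = 0.00301), with K278* at 283, and its second probe set was called too (adjusted p = 0.0016). The alarmin Il33 gave 149, 588 and 381 (adjusted p = 0.00986), with K278* at 85.0. Apod, a lipocalin that rises in quiescent fibroblasts, gave 1111, 3642 and 2243 (adjusted p = 0.0098), with K278* at 262, and Adh1, alcohol dehydrogenase, 759, 2241 and 1617 (adjusted p = 0.00367), with K278* at 227. GFP was lower than every PREX2 array for all of these, at 53.2, 59.9, 171 and 62.2, and LacZ was between full-length and Q1430* or close to it, at 570, 384, 1539 and 1182. On the second Cxcl13 probe set K278*, at 343, lay above full-length, at 261, unlike on the first, so the side of K278* depends on the probe set.

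Among genes that fell, the chromatin protein Hmga2, which is abundant in proliferating embryonic cells, gave 2251 with full-length, 1216 with E824* and 1498 with Q1430* (log2 difference -0.73, SE 0.127, limma adjusted p = 0.0198), with K278* at 4693 and GFP at 9134. One of its other probe sets was called in the same direction (adjusted p = 0.011) and the other was not (adjusted p = 0.157). The transferrin receptor Tfrc gave 1674, 863 and 1100 (adjusted p = 0.0251), with K278* at 2486, and the BMP antagonist Grem1 gave 6717, 3316 and 4617 (adjusted p = 0.0298), with K278* at 8394. The replication helicase subunit Mcm2 was called on its brighter probe set (adjusted p = 0.0111) and not on the other (adjusted p = 0.636). For these 4 genes K278* lay above full-length and GFP lay higher still. LacZ lay below full-length for all 4, at 1807 for Hmga2, 1243 for Tfrc, 4621 for Grem1 and 1036 for Mcm2. The ion channel Piezo1, at 1741, 1092 and 1031, and the lectin Lgals3, at 5068, 3329 and 3719, fell with K278* also below full-length, at 1581 and 4347. For both, LacZ lay below full-length too, at 1361 and 3442, and GFP lay above it, at 2624 and 6668.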

How the data were processed

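Biotin-labelled cRNA from total RNA was hybridised to Affymetrix 3′ expression arrays, per the labels' protocols. The deposited intensity signals were made with MAS5, per the submitters' processing notes; the sources used here do not give its version. Of 45101 probe sets, 64 controls were left out; the platform annotation gave 34945 a single symbol, 932 several and 9160 no symbol. Genes were named from the first kind, of which 34741 matched RefSeq (GRCm38.p6) by gene identifier.

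Signals were analysed as log2(signal + 25), in probe sets with a mean of at least 100 over the 4 arrays. limma 3.58.1 (R 4.3.3) fitted 2 group means with an intensity trend and 2 residual degrees of freedom, two-sided. The full-length array was assumed to vary like the truncations. Benjamini-Hochberg adjustment covered all tested probe sets, and the procedure was tested on simulated data.

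Named genes were the 15 highest and 15 lowest by the separation between full-length and the nearest truncation (brighter-group mean at least 200), Prex2, Rac1, Cdkn1c, up to 4 members a list by separation, and others where stated; some items of the rule are not reported here. Members and lists were chosen with earlier results of these data known. Alternatives were offsets of 5 and 100, a minimum signal of 200 or none, quantile normalization, no trend, fits of 6 or 9 arrays, the mean of all probe sets, and each truncation left out. The number of arrays limits the precision.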

Additional observations from a re-analysis of the deposited data

How the results depend on the processing

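The count of probe sets passing limma stayed at 0 under every alternative run except leaving out a truncation: over the 3 left-out arrays it ranged from 0 to 167 higher and from 0 to 56 lower, the upper values without K278*. Leaving out a truncation also moved, by construction, the counts on 1 side of full-length, which ranged from 4575 to 7411 above and from 4026 to 6662 below, the upper values again without K278*. At 1.5-fold they ranged from 86 to 270 above, against 47, and from 23 to 64 below, against 9. Without the signal filter 10524 probe sets lay above and 9379 below, 757 and 593 of them by 1.5-fold. After quantile normalization 3223 lay above and 3477 below, so the larger count changed side. At 1.5-fold the counts above and below were 87 and 18 with an offset of 5, 9 and 3 with an offset of 100, and 16 and 5 with a minimum of 200, and 18 lay below after quantile normalization.

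Averaging all tested probe sets of a gene reversed the log2 difference of Gpank1 (-0.09), Kalrn (-0.07), Rps9 (0.02), Cdh13 (0.02), Evl (0.20) and Hspa5 (0.06). Leaving out E824* reversed Adh1 (-0.29), Apod (-0.49), Cyp2f2 (-0.06) and Hmga2 (0.24), and leaving out Q1430* reversed Adh1 (-0.05), Apod (-0.15) and Hmga2 (0.09); without K278* these 4 were 1.30, 1.34, 1.26 and -0.73. Where no construction is named, the cause was not tested. No paired analysis was possible because the labels carry no replicate numbers shared between the groups and full-length PREX2 has 1 array. Dim probe sets, nearest to background, held most of the wide separations.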
